A study of Mus musculus with 65 samples.

Results

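The 6 genes described here are Scn3a, Cacna2d1, Snap25, Nrxn3, Syt1 and Gria2, which encode parts of the excitable membrane and of the synapse. They were chosen by name, as 6 of the 11971 genes of the deposited count table. The rule itself uses no measured value, but the genes were chosen with earlier results of these data known. All 6 were measured. The 65 samples are single cells of 1 group, and the question was where in the lineages of the embryonic cortex these genes appear.

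The cells were dissociated from embryonic cortex of the mouse strain C57BL/6J at stage E13.5, a mid-gestation stage when progenitors of the cortical wall divide and release neurons. The ganglionic eminences were cut away, tissue of all pups was combined, and live cells, which keep out the dye propidium iodide, were sorted singly for a SMARTer kit that copies whole polyadenylated transcripts. No treatment, genotype or second age was compared. Because pups were combined and no animal is named, cells are not replicates of animals. No test between classes of cells could be made, and every interval below is an exact (Clopper-Pearson) 95% interval that covers counting error only. Where a count is 0, the share it allows is given instead as 3 cells of the number in the class, which is an approximate limit.

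Voltage-gated sodium and calcium channels carry the action potential and the calcium entry that triggers transmitter release. At the release site, SNARE proteins fuse vesicles with the membrane under the control of calcium-sensing synaptotagmins, neurexins on the presynaptic side bind neuroligins on the postsynaptic side, and AMPA receptors receive glutamate. In the embryonic cortex, apical progenitors marked by Sox2 give rise to Eomes-expressing intermediate progenitors and then to glutamatergic neurons with Neurod6. Interneurons marked by Dlx5 are born in the ganglionic eminences and migrate into the cortex.

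Cells were placed in classes by these 4 genes, each counted as present from 10 CPM (the reads of a gene scaled to 1000000 reads in genes of that cell). Eomes was present in 20 cells, of which 10 also had Neurod6. Neurod6 was present in 16 cells, 6 of them without Eomes, and Dlx5 in 11 cells, 4 of them with Sox2. No cell had Dlx5 together with Eomes or Neurod6. The Sox2-only cells, set against these classes, are the 15 cells with Sox2 and none of the other 3 genes, and 13 cells had none of the 4. Other marker genes of the same lineages followed the classes. Tbr1, a gene of deep-layer glutamatergic neurons, was present in 14 of 16 Neurod6 cells, 0 of 11 Dlx5 cells and 0 of 15 Sox2-only cells. Dlx2, an interneuron transcription factor gene, was present in 0 of 16 Neurod6 cells, 8 of 11 Dlx5 cells and 0 of 15 Sox2-only cells. The labels call every cell a neural progenitor, but Dcx, a microtubule protein gene of young neurons, was present in 34 of the 65 cells, among them 15 of 16 Neurod6 cells, 10 of 11 Dlx5 cells and 0 of 15 Sox2-only cells.

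Depth was a median of 14609426 reads per cell, between 85338 and 32130629, and 3 cells had fewer than 1000000 reads. At the median depth 10 CPM corresponds to 146 reads. The shallowest cell counts as an Eomes cell through 1 read and as a Scn3a cell through 1 read (11.7 CPM). Cell titles fall into 3 numbered sets of 31, 13 and 21 cells whose meaning the labels do not give, and they are unevenly spread over the classes, with 11 of the 16 Neurod6 cells, 7 of the 11 Dlx5 cells and 6 of the 15 Sox2-only cells in set 1. Summed markers of microglia had a median of at most 3.03 CPM in any class. Summed globin and other red cell transcripts had a median of 829 CPM (0.287 to 5613) in Eomes cells without Neurod6, 36.7 CPM (0 to 1090) in Neurod6 cells, 122 CPM (0 to 1646) in Dlx5 cells and 420 CPM (0 to 1484) in Sox2-only cells, and their part in the results was not tested.

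Each of the 6 genes was either clearly present in a cell or close to absent. Between 1 and 10 CPM lay 1 cell for Scn3a, 2 for Cacna2d1, 7 for Snap25, 1 for Nrxn3, 2 for Syt1 and 1 for Gria2. Cells at 10 CPM or more held over 99% of the summed CPM of each gene, between 99.4% for Snap25 and 99.9% for Scn3a. Gria2 was present in 28 of the 65 cells, Cacna2d1 in 23, Scn3a in 22, Snap25 in 16, Syt1 in 10 and Nrxn3 in 8. Because whole transcripts were copied, a long transcript passes 10 CPM more easily, so the order of these counts is not an order of expression. Per kilobase of annotated exon, the median level in the cells with the gene was 28.2 CPM for Nrxn3, 21.8 CPM for Scn3a, 16.1 CPM for Cacna2d1 and 5.18 CPM for Syt1, with Snap25 above Nrxn3 and Gria2 between Cacna2d1 and Syt1.

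**Figure D1:**
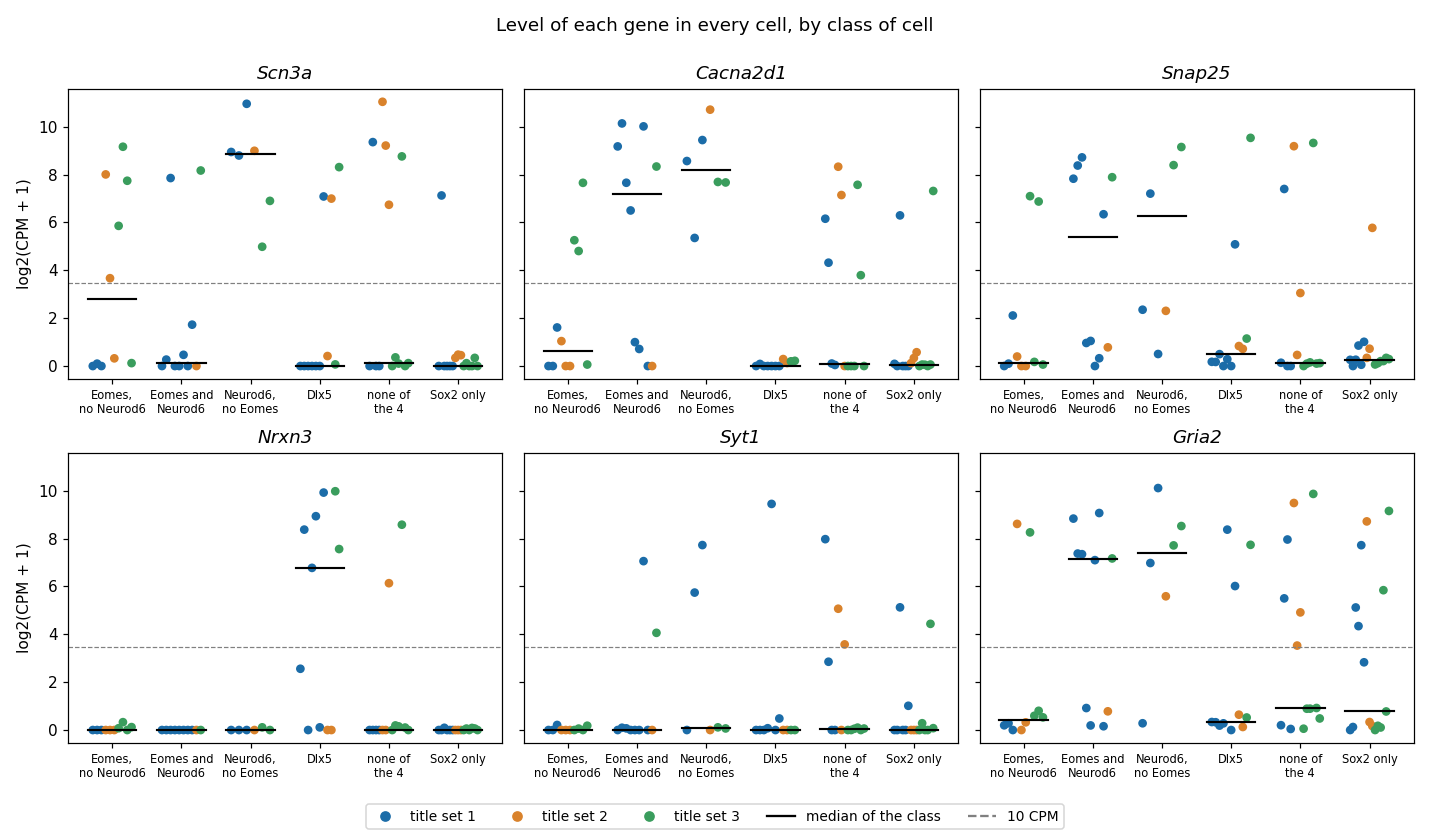
Level of each of the 6 genes in all 65 cells, as log2(CPM + 1), by class of cell, with Sox2-only cells on the right of each panel. Each point is 1 cell coloured by title set, the bar is the median of the class and the dashed line 10 CPM. Points lie high or near 0 with few between, Nrxn3 is high in 6 of 11 Dlx5 cells, and Cacna2d1 is high in all 6 Neurod6 cells without Eomes and in none of the Dlx5 cells.

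Cacna2d1 was found in Neurod6 cells and not in Dlx5 cells, and Nrxn3 in Dlx5 cells and not in Neurod6 cells. Cacna2d1 was present in 12 of 16 Neurod6 cells (75%, interval 47.6% to 92.7%) and in 0 of 11 Dlx5 cells, which allows a share of up to 27.3%. Nrxn3 was present in 0 of 16 Neurod6 cells, which allows a share of up to 18.8%, and in 6 of 11 Dlx5 cells (54.5%, interval 23.4% to 83.3%). Across all cells both were present together in 1 cell, which is 4.35% of the 23 Cacna2d1 cells and 12.5% of the 8 Nrxn3 cells.

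Promoters of both genes are shown because these 2 of the 6 genes had the most unequal levels between the lineages. The sequences come from the RefSeq promoter table for build GRCm38.p6 and run from 250 bases before to 50 bases after an annotated start, 5′ to 3′, with every E-box CANNTG on either strand in capitals. E-boxes are the motif bound by basic helix-loop-helix factors such as the Neurod and Neurog proteins, and 72.3% of the 32851 promoters in the table hold at least 1. Cacna2d1 has 1 start in the table (chr5:15934441-15934740, plus strand) and Nrxn3 has 3 (chr12:88794254-88794553, chr12:88953140-88953439 and chr12:89812233-89812532, all plus strand).
Cacna2d1: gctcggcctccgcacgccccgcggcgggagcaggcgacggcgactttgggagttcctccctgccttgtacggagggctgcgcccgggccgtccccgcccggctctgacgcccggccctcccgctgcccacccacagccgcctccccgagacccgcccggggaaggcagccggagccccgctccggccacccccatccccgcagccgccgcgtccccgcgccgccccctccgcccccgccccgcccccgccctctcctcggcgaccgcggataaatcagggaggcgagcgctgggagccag
Nrxn3 start 1: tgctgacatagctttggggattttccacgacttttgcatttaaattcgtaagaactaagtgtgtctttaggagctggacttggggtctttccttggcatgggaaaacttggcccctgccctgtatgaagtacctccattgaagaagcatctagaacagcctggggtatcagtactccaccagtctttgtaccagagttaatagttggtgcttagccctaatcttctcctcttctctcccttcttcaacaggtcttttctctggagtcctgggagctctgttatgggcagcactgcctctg
Nrxn3 start 2: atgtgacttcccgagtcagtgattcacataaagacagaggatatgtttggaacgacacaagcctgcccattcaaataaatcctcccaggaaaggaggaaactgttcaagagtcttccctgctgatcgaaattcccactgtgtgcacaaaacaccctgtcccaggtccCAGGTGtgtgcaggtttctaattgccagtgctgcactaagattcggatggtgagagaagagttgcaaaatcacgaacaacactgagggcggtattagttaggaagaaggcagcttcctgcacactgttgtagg
Nrxn3 start 3: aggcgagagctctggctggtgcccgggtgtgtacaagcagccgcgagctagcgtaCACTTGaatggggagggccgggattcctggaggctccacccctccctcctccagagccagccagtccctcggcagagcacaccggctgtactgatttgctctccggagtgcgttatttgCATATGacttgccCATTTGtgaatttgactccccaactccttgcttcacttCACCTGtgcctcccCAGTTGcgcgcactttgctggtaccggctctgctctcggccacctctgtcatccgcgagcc
The Cacna2d1 window is 80% G and C, against a median of 52.7% over all promoters, and holds no E-box. Nrxn3 has 0, 1 and 5 E-boxes at its starts 1, 2 and 3. Which Nrxn3 start the reads came from is not given by counts per gene. Gria2 has 1 E-box and the 2 Syt1 starts have 0 and 3. The core TAATTA, bound by homeodomain factors of the Dlx kind and present in 5.29% of all promoters, was in none of these 7 windows. It was added to the search after the values had been seen. Promoters of Scn3a and Snap25 were not used here.

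Scn3a encodes the pore-forming subunit of a voltage-gated sodium channel that is prominent in the embryonic brain. In Eomes cells without Neurod6, Scn3a lay at 0 CPM in the lowest cell, a median of 5.98 and a highest value of 571 CPM, and 5 of 10 cells were at 10 CPM or more. Without the shallowest cell, which counts through 1 read, the median was 0.250 CPM and 4 of 9 cells had the gene. In the 10 cells with both Eomes and Neurod6 the lowest was 0, the median 0.103 and the highest 287 CPM, with 2 cells at 10 CPM or more. In the 6 Neurod6 cells without Eomes it lay between 30.6 and 1983 CPM with a median of 467 CPM, so that every one of them had the gene. Dlx5 cells had a median of 0 and a highest value of 316 CPM, with 3 of 11 cells at 10 CPM or more. In Sox2-only cells the median was 0, 1 of 15 cells had the gene (139 CPM) and the next highest had 0.391 CPM.

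Among Neurod6 cells, Scn3a was present in 6 of 6 cells without Eomes (interval 54.1% to 100%) and 2 of 10 with it (20%, interval 2.52% to 55.6%), and these intervals overlap. Reln, a gene of Cajal-Retzius neurons, was at 10 CPM or more in 3 of the 6 cells without Eomes and 0 of the 10 with it. The cell with the highest Scn3a level of these, 1983 CPM, had Reln at 7134 CPM. The part of such cells in the difference was not tested. Of all 11971 genes, 0.0418%, which is 5 genes, were present in all 6 cells without Eomes and in at most 2 of the 10 with it: Abr, Ctnnd2, Rqcd1, Scn3a and Syt4. That rule was written after the Scn3a values had been seen. Within title set 1, the set with most of these cells, Scn3a was present in 3 of 3 Neurod6 cells without Eomes and 1 of 8 with it. Sets 2 and 3 hold 1 Neurod6 cell with Eomes each. Among all Eomes cells it was present in 1 of 11 cells of set 1, in 2 of the 4 cells of set 2 and in 4 of the 5 of set 3. Without set 1 its share of Eomes cells was 66.7% in place of 35%, and that of Neurod6 cells 80% in place of 50%.

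Cacna2d1 encodes an auxiliary alpha2delta subunit that carries voltage-gated calcium channels to the membrane. In Eomes cells without Neurod6 its level was 0 CPM in the lowest cell, 0.551 CPM at the median and 200 CPM in the highest, and 3 of 10 cells reached 10 CPM, all 3 of them in title set 3. In cells with Eomes and Neurod6 it was 0 CPM in the lowest, 145 CPM at the median and 1123 CPM in the highest, with 6 of 10 cells at 10 CPM or more. All 6 Neurod6 cells without Eomes had it, between 39.8 and 1674 CPM with a median of 291 CPM. The 11 Dlx5 cells held 10 reads of the gene in all and none exceeded 0.224 CPM. Among Sox2-only cells 2 of 15 had it, at 77.4 and 158 CPM, and the others lay at or below 0.492 CPM. The 4 Neurod6 cells without the gene lay between 0 and 0.998 CPM, so the classes overlap at this low end.

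The share of all 11971 genes that were present in at least 12 of 16 Neurod6 cells and in no Dlx5 cell was 0.0585%, which is 7 genes: Cacna2d1, Neurod1, Neurod2, Neurod6, Pam, Serpini1 and Tbr1. Neurod6 was used to define the class, and the rule was written after the Cacna2d1 values had been seen. Without title set 1 the rule held for 66 genes. Cacna2d1 left this list without title set 3, when 9 of 13 Neurod6 cells had it, and at 50 CPM in place of 10 CPM. Reln, which marks Cajal-Retzius neurons of the marginal zone, was at 10 CPM or more in 3 of 16 Neurod6 cells, 0 of 11 Dlx5 cells and 1 of 15 Sox2-only cells, and all 3 of those Neurod6 cells had Cacna2d1. The summed level of 7 Cajal-Retzius markers had a median of 2.50 CPM (0 to 7828) in Neurod6 cells and 0.322 CPM (0 to 50.4) in Dlx5 cells. The median was 0.615 CPM (0 to 390) in Sox2-only cells and 0.0973 CPM (0 to 1145) in Eomes cells without Neurod6. The Eomes cell at 1145 CPM had Cacna2d1 at 200, Scn3a at 213, Snap25 at 116 and Dcx at 0.670 CPM. Another, with Scn3a at 571 CPM, had these markers at 235 CPM and Dcx at 0.511 CPM. By contrast, the one with Snap25 at 136 CPM had them at 0.162 CPM and Dcx at 576 CPM. The part of such cells was not tested. Of the 13 Neurod6 cells without Reln, 9 had Cacna2d1, 8 Gria2, 6 Snap25, 5 Scn3a, 2 Syt1 and 0 Nrxn3.

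Snap25 encodes a SNARE protein of the presynaptic membrane. Snap25 in Eomes cells without Neurod6 had a median of 0.0997 CPM and a highest value of 136 CPM, and 2 of 10 cells, both of title set 3, were at 10 CPM or more. Cells with Eomes and Neurod6 had a median of 40.6 and a highest value of 420 CPM, with 5 of 10 cells at 10 CPM or more, and Neurod6 cells without Eomes had a median of 75.2 and a highest value of 567 CPM, with 3 of 6. Thus 8 of 16 Neurod6 cells had Snap25 (50%, interval 24.7% to 75.3%). Dlx5 cells had a median of 0.412 CPM, and 2 of 11 had the gene, at 32.9 and 739 CPM. In Sox2-only cells the median was 0.201 CPM, 1 of 15 had it, at 53.6 CPM, and the others were at or below 1.02 CPM. Low traces were common: 55 of the 65 cells held at least 1 Snap25 read, among them 14 of 15 Sox2-only cells.

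Syt1 encodes the calcium sensor of fast transmitter release, and its level per kilobase was the lowest of the 6 where present. None of the 10 Eomes cells without Neurod6 had Syt1, which allows a share of up to 30%, and their highest level was 0.158 CPM. It was present in 2 of 10 cells with Eomes and Neurod6 (15.7 and 132 CPM), 2 of 6 Neurod6 cells without Eomes (52.5 and 211 CPM), 1 of 11 Dlx5 cells (696 CPM) and 2 of 15 Sox2-only cells (20.6 and 33.9 CPM). The medians of all these classes were at or below 0.0641 CPM. The intervals of the shares, 7.27% to 52.4% in Neurod6 cells, 0.230% to 41.3% in Dlx5 cells and 1.66% to 40.5% in Sox2-only cells, overlap widely. A single Dlx5 cell held 47.5% of the summed Syt1 CPM of all 65 cells.

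Nrxn3 encodes a neurexin, a presynaptic adhesion protein. All 6 Dlx5 cells that had it lay between 108 and 1005 CPM, and the median over all 11 Dlx5 cells was 108 CPM. The 20 Eomes cells reached at most 0.255 CPM, the 16 Neurod6 cells 0.0812 CPM and the 15 Sox2-only cells 0.0668 CPM. These classes held 9, 2 and 5 reads of Nrxn3 in all, against 50280 reads in the 11 Dlx5 cells. By title set, Nrxn3 was present in 4 of 7, 0 of 2 and 2 of 2 Dlx5 cells. It was also present in 2 cells with none of the 4 class genes. One of them, at 381 CPM, also had Tbr1 (50.7 CPM) and Cacna2d1 (189 CPM), and the other, at 69.2 CPM from 57 reads in a shallow cell, had Gad2 at 69.2 CPM, the gene of a GABA-synthesising enzyme.

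Of all genes, 0.0418%, which is 5 genes, were present in 50% or more of the Dlx5 cells and in no Eomes, Neurod6 or Sox2-only cell: Dlx2, Dlx5, Dlx6as1, Nrxn3 and Sp9. The other 4 are transcription factors of the interneuron lineage or, for Dlx6as1, an antisense transcript whose reads this kit cannot tell from its partner gene. Dlx5 defined the class, and the rule was written after the Nrxn3 values had been seen. Without title set 1 the rule held for 35 genes. Without title set 3, 4 of 9 Dlx5 cells had Nrxn3 and it left the list. Nrxn3 was also found together with Sox2: 2 of the 4 Dlx5 cells with Sox2 had it (330 and 1005 CPM), and 4 of the 7 without Sox2. None of the other 5 genes was present in any of the 4 Dlx5 cells with Sox2. In Dlx5 cells without Sox2, Scn3a was present in 3 of 7, Gria2 in 3, Snap25 in 2, Syt1 in 1 and Cacna2d1 in 0. With 4 cells, whose exact interval for a count of 0 reaches 60.2%, a lower share with Sox2 was not detectable. In the gene annotation, 439 exonic bases of Nrxn3 overlap Gm37980 on the opposite strand, which matters for a kit that does not keep strand.

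**Figure D2:**
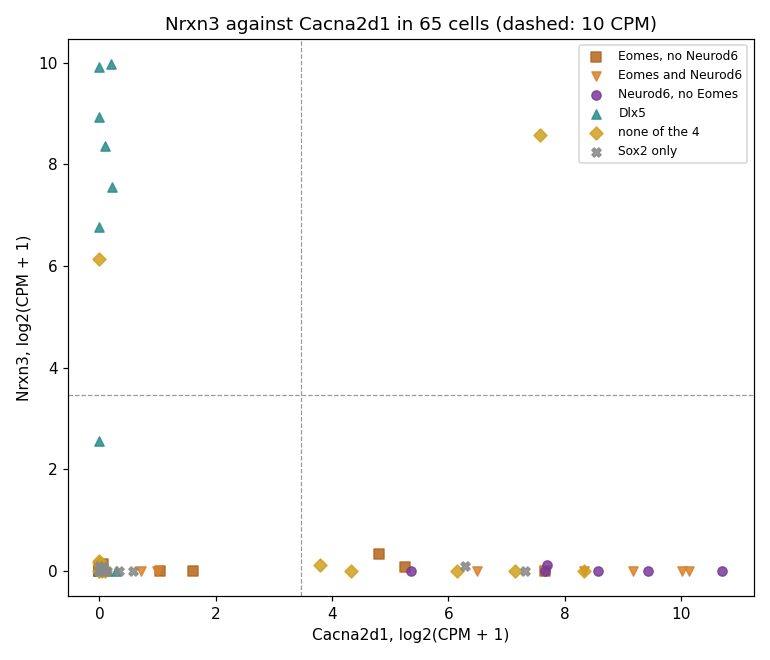
Nrxn3 against Cacna2d1 in each of the 65 cells, both as log2(CPM + 1), with the class of the cell as colour and shape and 10 CPM dashed. Dlx5 cells with Nrxn3 run up the left edge, cells with Cacna2d1 run along the bottom, and 1 cell, with none of the 4 class genes, has both.

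Gria2 encodes the AMPA receptor subunit that limits calcium flow through the receptor. Of the 6 genes it had the highest share in Sox2-only cells. Eomes cells without Neurod6 had a median of 0.346 CPM and a highest value of 390 CPM, and 2 of 10 had the gene. In cells with Eomes and Neurod6 the median was 139 and the highest 535 CPM, with 6 of 10 cells at 10 CPM or more, and in Neurod6 cells without Eomes the median was 167 and the highest 1102 CPM, with 5 of 6. Taken as one class, 11 of 16 Neurod6 cells had Gria2 (68.8%, interval 41.3% to 89.0%). Dlx5 cells had a median of 0.261 and a highest value of 330 CPM, with 3 of 11 cells. Sox2-only cells had a median of 0.712 and a highest value of 568 CPM, and 6 of 15 had it (40%, interval 16.3% to 67.7%). The intervals of the classes overlap. Sox2-only cells with Gria2 lay between 19.3 and 568 CPM. Those with the gene lay between 47.1 and 1102 CPM in Neurod6 cells and between 63.6 and 330 CPM in Dlx5 cells, so the ranges overlap in part. Dcx was at most 3.74 CPM in Sox2-only cells, but other genes of neurons were not absent. Tubb3 was present in 5 of the 6 Sox2-only cells with Gria2 and 4 of the 9 without it, and Stmn2 in 1 of the 6 and 1 of the 9. The Stmn2 cell with Gria2 (419 CPM) had Stmn2 at 457 CPM and Reln at 203 CPM. The part of these genes in the result was not tested. In the gene annotation, 111 exonic bases of Gria2 overlap the small gene Gm25749 on the same strand.

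**Figure D3:**
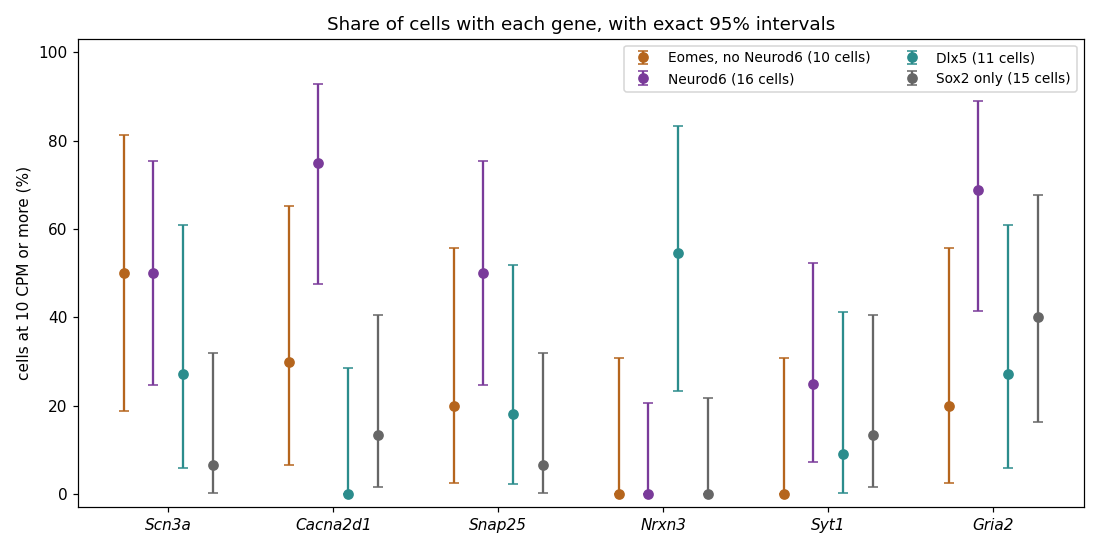
Share of cells at 10 CPM or more for each gene, in percent, with exact 95% intervals, in 10 Eomes cells without Neurod6, 16 Neurod6 cells, 11 Dlx5 cells and 15 Sox2-only cells. Neurod6 cells reach 75% for Cacna2d1 and 68.8% for Gria2, Dlx5 cells 54.5% for Nrxn3, and Gria2 stands at 40% in Sox2-only cells.

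At 50% or more of a class, 1 of the 6 genes was present in Eomes cells without Neurod6 (Scn3a), 4 in Neurod6 cells (Scn3a, Cacna2d1, Snap25 and Gria2), 1 in Dlx5 cells (Nrxn3) and 0 in Sox2-only cells. Of all 11971 genes, 17.2%, 17.1%, 14.5% and 17% reached that share in the Eomes cells without Neurod6, Neurod6, Dlx5 and Sox2-only cells. The counts of 1 are near the shares over all genes. The count of 4 in Neurod6 cells rests on Scn3a and Snap25 at exactly 8 of 16 cells, and it lay between 2 and 4 when each cell was left out in turn. Without title set 3 both were in 38.5% of Neurod6 cells. Scn3a also left the count in Eomes cells without Neurod6 without the shallowest cell (44.4%).

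In mean level, Neurod6 cells were at least 2-fold above Sox2-only cells for 5 of the 6 genes, while 28.3% of the 9660 genes of mean CPM 5 or more were that much higher and 33.3% that much lower. Scn3a averaged 256 ± 499 CPM in Neurod6 cells and 9.33 ± 35.8 CPM in Sox2-only cells (SD over 16 and 15 cells), a 27.4-fold difference. Cacna2d1 averaged 409 ± 493 CPM in Neurod6 cells and 15.8 ± 44.1 CPM in Sox2-only cells, which is 25.9-fold. Snap25 averaged 147 ± 184 CPM in Neurod6 cells and 3.85 ± 13.8 CPM in Sox2-only cells, which is 38.2-fold. Every one of these SDs exceeds its mean, since cells with and without the gene are averaged. Syt1 was 6.91-fold and Gria2 2.46-fold higher in Neurod6 cells, and the Gria2 difference fell to 1.32-fold without title set 1. For Scn3a and Snap25 the mean of the Sox2-only cells rests on 1 cell, so that leaving out a title set gave 18.1 to 1230-fold for Scn3a and 14.8 to 630-fold for Snap25, and for Cacna2d1 17.7 to 51.3-fold.

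Eomes cells without Neurod6 were higher than Sox2-only cells for Scn3a and Snap25, against 26.2% of 9642 genes higher and 36.1% lower. Scn3a averaged 111 CPM in these Eomes cells and 9.33 CPM in Sox2-only cells, 11.9-fold, and 2.88 to 1032-fold when a title set was left out. Snap25 averaged 25.6 CPM in these Eomes cells and 3.85 CPM in Sox2-only cells, 6.64-fold, but without title set 3 the direction turned, to 0.0979-fold. Cacna2d1 (1.70-fold) and Gria2 (0.796-fold) were within 2-fold. These were not stable: Cacna2d1 was 0.0596-fold without title set 3, 2.15-fold without title set 1, 4.93-fold with class genes counted from 50 CPM and 4.04-fold with TMM scaling, under which Gria2 was 2.60-fold. Syt1 had 6 reads in the 10 Eomes cells without Neurod6 and 978 reads in the 15 Sox2-only cells, and was called lower.

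Dlx5 cells were higher than Sox2-only cells for Scn3a, Snap25, Syt1 and Nrxn3 and lower for Cacna2d1, against 27.1% of 9639 genes higher and 35% lower. Nrxn3 averaged 281 ± 384 CPM in Dlx5 cells and 0.0145 ± 0.0255 CPM in Sox2-only cells (SD over 11 and 15 cells). Scn3a was 5.63-fold higher, and 1.87-fold without title set 3 and 722-fold without title set 1. Snap25 was 18.3-fold higher, through 2 cells, and 0.620-fold without title set 3, and the higher mean of Syt1 came from 1 cell of title set 1. Gria2 was 0.631-fold and within the 2-fold limit, and 0.460-fold without title set 1.

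Set directly against each other, Neurod6 cells were higher than Dlx5 cells for 4 of the 6 genes and lower for Nrxn3 and Syt1, while 32.2% of 9614 genes were higher and 28.9% lower. The lower Syt1 mean in Neurod6 cells rests on 1 Dlx5 cell: Syt1 averaged 25.7 CPM in Neurod6 cells and 63.3 CPM in Dlx5 cells, but 0.0450 CPM in the other 10 Dlx5 cells, and it was present in 4 of 16 Neurod6 and 1 of 11 Dlx5 cells. Without the highest Dlx5 cell Snap25 averaged 3.65 CPM in Dlx5 cells in place of 70.5 CPM. Cacna2d1 averaged 409 ± 493 CPM in Neurod6 cells and 0.0626 ± 0.0821 CPM in Dlx5 cells, and Nrxn3 averaged 0.00508 ± 0.0203 CPM in Neurod6 cells and 281 ± 384 CPM in Dlx5 cells (SD over 16 and 11 cells). These differences kept their side of 2-fold in every setting tried. Gria2 was 3.90-fold higher, and 2.87 to 4.78-fold when a title set was left out. Scn3a was 4.87-fold higher in Neurod6 cells, and 1.70-fold without title set 1. The 2.09-fold of Snap25 lay at the limit and was 1.23-fold without title set 1, 23.9-fold without title set 3, 1.73-fold with scran size factors and 1.93-fold with TMM. Top2a, a gene of dividing cells, was present in 5 of 16 Neurod6 and 6 of 11 Dlx5 cells, and Mki67, another, in 4 and 3. Each was present in 3 of the 4 Dlx5 cells with Sox2. The part of dividing or less mature cells in the differences between the classes was not tested.

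Neurod6 cells often had several of the 6 genes at once. Neurod6 cells without Eomes had a median of 4 of the 6, between 2 and 5, cells with Eomes and Neurod6 a median of 2, between 0 and 5, and Eomes cells without Neurod6 a median of 0.5, between 0 and 4. Dlx5 cells had a median of 1, between 0 and 4, and Sox2-only cells a median of 1, between 0 and 3. At least 3 of the 6 were present in 10 of 16 Neurod6 cells, 3 of 11 Dlx5 cells and 1 of 15 Sox2-only cells. The median share over all genes was 12.5% of Neurod6, 9.09% of Dlx5 and 13.3% of Sox2-only cells. Other sets of 6 genes were not counted, so how unusual these counts per cell are was not tested. Of all 65 cells 22 had none and no cell had all 6. Scn3a and Cacna2d1 shared 15 cells, which is 68.2% of the Scn3a cells and 65.2% of the Cacna2d1 cells. Gria2 was present in 72.7% of the Scn3a cells, 73.9% of the Cacna2d1 cells, 81.3% of the Snap25 cells and 80% of the Syt1 cells, against 43.1% of all cells. Of the 8 Nrxn3 cells 4 had Scn3a, 5 had Gria2, 3 had Snap25 and 2 had Syt1.

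Cells were also ordered by how neuronal their other genes were. Each cell was given the mean log2(CPM + 1) of 22 neuronal genes minus that of 23 progenitor genes, none of them one of the 6. The cells that fell into the lowest 22, the middle 22 and the highest 21 of this score had Scn3a in 1, 5 and 16 cells, Snap25 in 1, 4 and 11, Cacna2d1 in 4, 5 and 14, and Nrxn3 in 0, 2 and 6. Gria2 was present in 7, 5 and 16 and Syt1 in 3, 1 and 6. Scn3a, Snap25 and Nrxn3 were thus in at most 1 of the lowest 22 cells, and Gria2, Cacna2d1 and Syt1 were in 7, 4 and 3 of them. Of the lowest 22 cells 14 are Sox2-only cells, and of the highest 21 cells 11 are Neurod6 cells and 5 are Dlx5 cells. Sox2, Dcx and Tubb3 are among the genes of the score, so the low place of Sox2-only cells follows in part from how it was built.

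Across the 65 cells, Spearman's rho with the score was 0.620 for Snap25, 0.587 for Scn3a, 0.474 for Cacna2d1, 0.370 for Gria2, 0.237 for Syt1 and 0.0713 for Nrxn3. These values are a description of cells that differ in depth. The median rho of all 8377 genes of mean CPM 10 or more was -0.0485. Of these genes 27 had a higher rho than Snap25, 36 than Scn3a, 107 than Cacna2d1, 255 than Gria2, 691 than Syt1 and 2267 than Nrxn3. Genes that make up the score were not left out of these counts, and they follow the score in part by construction. Within title sets 1, 2 and 3 the rho was 0.637, 0.621 and 0.736 for Scn3a, 0.570, 0.512 and 0.658 for Snap25, and 0.421, 0.337 and 0.680 for Cacna2d1. The number of the 6 genes per cell had a rho of 0.618 with the score, -0.154 with the reads of a cell and -0.0294 with its number of detected genes.

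**Figure D4:**
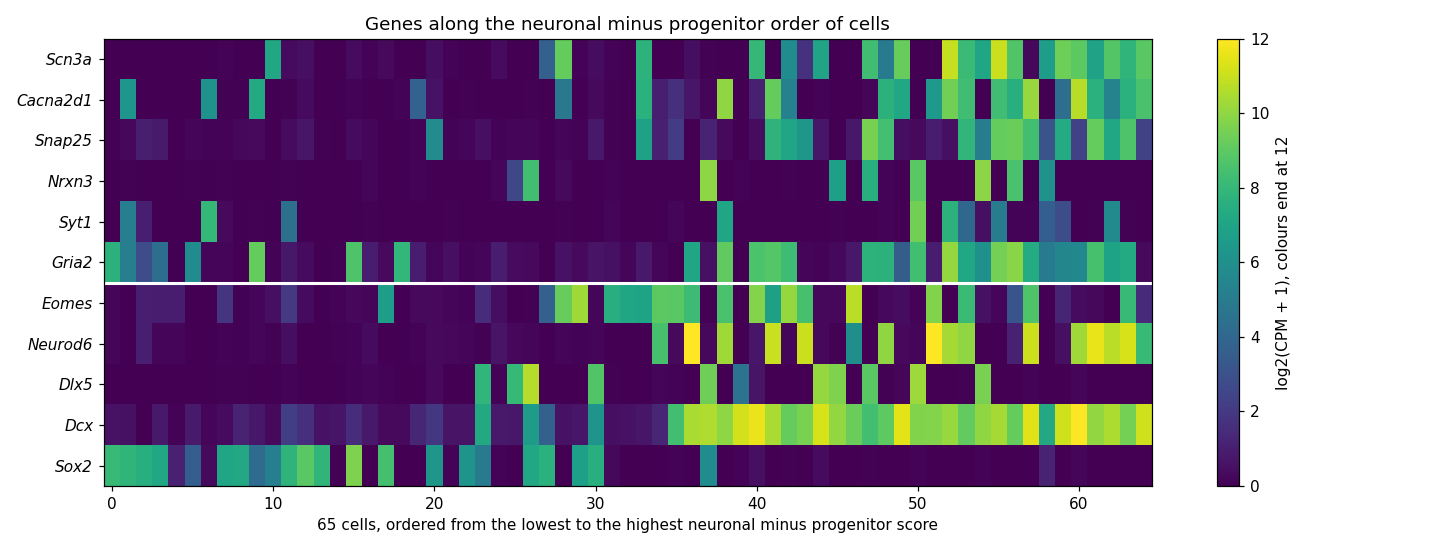
The 6 genes (upper rows) and Eomes, Neurod6, Dlx5, Dcx and Sox2 (lower rows) in 65 cells ordered from the lowest to the highest neuronal minus progenitor score, with colour as log2(CPM + 1). Scn3a is present in 1 of the lowest 22 cells and in 16 of the highest 21, and Gria2 in 7 and 16. Dcx and Sox2 are themselves among the genes of the score.

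The gene most like Scn3a over the 65 cells, by Spearman's rho of log2(CPM + 1) among 8376 other genes of mean CPM 10 or more and given a positive rho in every title set, was Ina, a neurofilament protein gene (rho 0.710), followed by Hecw1, Rtn1, Stmn2 and Islr2 (0.640 to 0.619). For Cacna2d1 the nearest were Tbr1 (0.665), Neurod2, Slc17a6, the vesicular glutamate transporter gene of early glutamatergic neurons, Nxph4 and Evl (0.613). Of the 5, the first 4 were present in 0 of 11 Dlx5 cells and Evl in 1. Snap25 was most like Stmn2 (0.666), Cnr1, Rtn1, Tuba1a and Cacna2d1 (0.586), and Gria2 most like Celf4 (0.541), Vcan, Tnik, Ccser1 and Crmp1 (0.512). Syt1 lay nearest Kif1b (0.527), Cnr1, Slc25a17, Tnik and Srgap1 (0.425). The nearest genes to Nrxn3 were Ubb (0.538), Riiad1, Gpr153, Bag5 and Tceb1 (0.491), and with Nrxn3 at 0 reads in most cells these values describe little.

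Relatives of the 6 genes were mostly in fewer of the 65 cells than the gene itself. Exceptions included Nrxn2, in 9 cells against 8 for Nrxn3, and Syt11, in 53 cells against 10 for Syt1. Nrxn2, another neurexin gene, was present in 3 of 16 Neurod6, 4 of 11 Dlx5 and 0 of 15 Sox2-only cells. Of the sodium channel genes, Scn8a was present in 3 of 10 Eomes cells without Neurod6, 2 of 16 Neurod6, 5 of 11 Dlx5 and 1 of 15 Sox2-only cells, Scn2a1 in 0, 3, 0 and 1 and Scn1a in 0, 1, 0 and 1 of the same classes. Cacna2d2 and Cacna2d3 were present in 2 and 1 of 16 Neurod6 cells and in 0 and 1 of 11 Dlx5 cells. Gria1 was present in 1 Neurod6 and 1 Dlx5 cell, Gria4 in 1 Sox2-only cell, and Gria3 in no cell of these classes. Syt4 was present in 7 of 16 Neurod6 cells, all 6 without Eomes among them, 1 of 11 Dlx5 and 0 of 15 Sox2-only cells, and Syt11 in most cells of each class, with 14, 8 and 13. Snap23, the SNARE relative used outside neurons, was present in 0 of 16 Neurod6, 0 of 11 Dlx5 and 3 of 15 Sox2-only cells.

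Other channel and synapse genes were, at the median, in the same share of Neurod6 cells and of Dlx5 cells as all genes. Of 106 listed genes 81 were measured, and 3 of them were present in 50% or more of the Eomes cells without Neurod6, 6 in Neurod6, 2 in Dlx5 and 3 in Sox2-only cells. The listed gene at the median was present in 12.5% of Neurod6, 9.09% of Dlx5 and 0% of Sox2-only cells, against 12.5%, 9.09% and 13.3% for all genes. In mean level, among the listed genes of mean CPM 5 or more, 20 of 54 were at least 2-fold higher and 24 lower in Eomes cells without Neurod6 than in Sox2-only cells, 39 of 57 higher and 8 lower in Neurod6 cells, and 31 of 56 higher and 14 lower in Dlx5 cells. The median ratio to Sox2-only cells was 0.704 in Eomes cells without Neurod6 (0.850 over all genes), 8.99 in Neurod6 cells (0.896 over all genes) and 2.77 in Dlx5 cells (0.879 over all genes), with genes that had no read in Sox2-only cells set against 3 reads. In Neurod6 cells 17 of 21 vesicle release genes, 5 of 5 calcium channel genes, 5 of 8 receptor genes, 7 of 15 adhesion genes, 3 of 5 sodium channel genes and 2 of 3 potassium channel genes were higher. In Dlx5 cells 14 of 20 vesicle release genes and 6 of 8 receptor genes were higher, while 3 of 15 adhesion genes were higher and 6 lower. Of 6 measurable relatives that act outside synapses, such as Stx7 and Vamp3, 2 were higher and 2 lower in Neurod6 than in Sox2-only cells.

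Between the lineages, 32 of 57 listed genes were higher and 10 lower in Neurod6 than in Dlx5 cells, where 32.2% of all genes were higher and 28.9% lower. The glutamate transporter gene Slc17a6 was present in 9 of 16 Neurod6 cells, 0 of 11 Dlx5 cells and 6 of 10 Eomes cells without Neurod6. Cntnap2, a neurexin-like adhesion gene, was present in 13 of 16 Neurod6 cells, 1 of 11 Dlx5 and 9 of 15 Sox2-only cells, and the kainate receptor gene Grik2 in 9, 2 and 3. Cplx2, which encodes a complexin that clamps the SNARE complex, was present in 8 of 16 Neurod6, 1 of 11 Dlx5 and 0 of 15 Sox2-only cells. Genes with the other pattern were Cadm1, an adhesion gene, in 2 of 16 Neurod6, 7 of 11 Dlx5 and 13 of 15 Sox2-only cells, and Grik3 in 0 of 16 Neurod6, 4 of 11 Dlx5 and 0 of 15 Sox2-only cells.

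**Figure D5:**
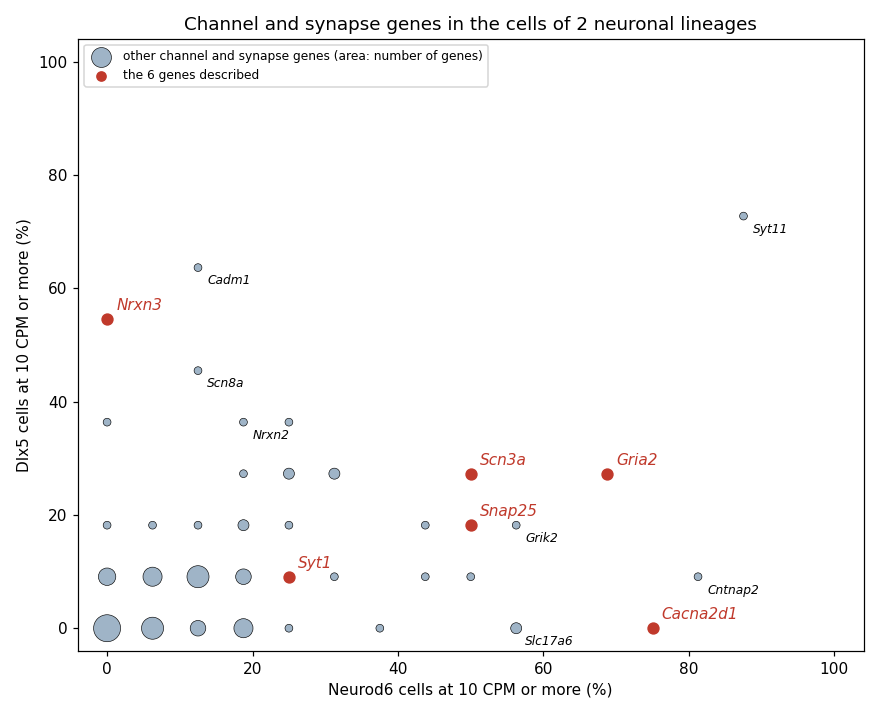
Share of Neurod6 cells (across) and of Dlx5 cells (up) at 10 CPM or more, in percent, for the 6 genes (red) and the 81 measured genes of the channel and synapse lists (grey, area by number of genes at the same point). Cacna2d1 lies at 75% of Neurod6 and 0% of Dlx5 cells, Nrxn3 at 0% and 54.5%, and most listed genes lie near the origin.

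Cells with none of the 4 class genes were mixed. At least 3 of the 6 genes were present in 5 of these 13 cells, and Scn3a and Gria2 in all 5. Among them a cell of title set 2 held the highest Scn3a level of all 65 cells, 2101 CPM, together with Snap25 at 580 CPM and Tbr1 at 45.4 CPM, and a cell of title set 1 had Tbr1 at 601 CPM with 4 of the 6. All 5 had Dcx, between 149 and 2915 CPM. By contrast, 2 other cells of this class carried summed markers of mural and meningeal cells of 11962 and 19800 CPM, and of the 6 genes they had only Cacna2d1 in 1 cell, at 12.9 CPM.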

How the data were processed

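Single cells from E13.5 mouse cortex were sequenced, and the authors deposited raw counts of reads per gene for 65 cells. TopHat2, HTSeq and build mm9 are named, without versions, per the submitters' processing notes. No column of another sample was in the table (0). No cell barcode or molecular identifier is involved: reads are not independent molecules, so intervals and limits cover counting error only. Brains of pups were combined, hence no test between classes was made.

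The 6 genes, the marker and role lists and the comparisons were chosen with earlier results of these data known. Counts were scaled to CPM, a gene was called present from 10 CPM, and means were compared at 2-fold among genes of mean CPM 5 or more. Genes named are the 6, class markers, measured relatives of the 6, up to 6 genes per role list by their share of Neurod6 and Dlx5 cells, and the 5 genes most like each of the 6 by Spearman's rho. Some genes that this rule names are not reported here. Genes named from rules written after values were seen are marked as such. Exon lengths and overlaps came from GENCODE vM21 and promoters from RefSeq on GRCm38.p6. No coordinate was moved between builds. Python 3.11.15 (numpy 2.4.6, pandas 2.3.3, scipy 1.17.1, matplotlib 3.10.9) and R 4.3.3 (scran 1.30.0 and, for TMM factors, edgeR 4.0.16) were used, and the scripts were tested on simulated data. Alternatives were other thresholds, scalings, depth limits and leaving out each title set. Title sets are not known to be batches.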

Additional observations from a re-analysis of the deposited data

How the results depend on the processing

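No paired analysis was possible because all cells belong to 1 group and share no replicate numbers across groups. Over the alternative settings, 23 of the recomputed shares of cells fell outside the exact 95% interval of the reported share and 217 inside it. Those intervals are wide, so a share inside may still differ much: in Neurod6 cells Syt1 was in 50% when counted from 1 read in place of 25%, and Scn3a in 38.5% without title set 3 in place of 50%. Median numbers of the 6 genes per cell moved by more than 1 SD over cells in 5 cases, counts of genes by more than 1.5 times in 5 cases, 18 folds changed their side of the fold limit and 2 reversed.

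Counted from 1 read, Eomes cells had Scn3a in 65%, Cacna2d1 in 70%, Snap25 in 80%, Syt1 in 35% and Gria2 in 90%, with a median of 3 of the genes per cell, and Neurod6 cells had Snap25 in 93.8% and Gria2 in 100%. Dlx5 cells then had Cacna2d1 in 45.5%, Snap25 in 81.8% and Gria2 in 90.9%, with a median of 4, and Sox2-only cells had Scn3a in 40%, Cacna2d1 in 60%, Snap25 in 93.3%, Nrxn3 in 26.7% and Gria2 in 86.7%, with a median of 3. Counted from 50 CPM, Sox2-only cells had Syt1 in 0% and a median of 0 genes. Counted from the level of a gene's second highest cell divided by 10, they had Scn3a and Snap25 in 0% and a median of 0 genes. Without title set 1, Scn3a was in 66.7% of Eomes cells, 80% of Neurod6 cells and 0% of Sox2-only cells, Syt1 in 0% of Dlx5 cells, and the rho of Scn3a with the score was 0.713. Without title set 2, Snap25 was in 0% of Sox2-only cells. Without title set 3, Snap25 was 0.0979-fold in Eomes cells without Neurod6 and 0.620-fold in Dlx5 cells, both over Sox2-only cells. At 4-fold in place of 2-fold, 1538 genes in place of 2528 were higher in Eomes cells without Neurod6 than in Sox2-only cells. The same change gave 1728 in place of 2729 higher and 2046 in place of 3214 lower in Neurod6 than in Sox2-only cells, 1588 in place of 2608 higher in Dlx5 than in Sox2-only cells, and 1682 in place of 2778 lower in Neurod6 than in Dlx5 cells. A fold of Syt1 without title set 1 was not computed, since its mean fell below CPM 5. Apart from thresholds and left-out sets, the cause of these moves was not tested.

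With 10 to 16 cells in a class, a gene in 0 cells may be in up to 18.8% to 30% of such cells. In a cell of under 1000000 reads, 10 CPM rests on fewer than 10 reads.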
